A study of Mus musculus with 6 samples.

Results

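Timd4-positive (Timd4+) Kupffer cells, the resident macrophages of the liver sinusoid, were described in single-cell transcriptomes of congested mouse livers. The cells were chosen by their measured transcripts. Barcodes counted as cells had 300 or more genes, 500 or more transcript molecules (unique molecular identifiers, UMIs) and a mitochondrial share of no more than 30%. A kept cell was Timd4+ when it had at least 3 of the 6 Kupffer genes Clec4f, Vsig4, C1qa, Csf1r, Cd5l and Adgre1 and at least 1 UMI of Timd4. It also had to have no UMI of Gpnmb, fewer than 3 of the 5 division genes Top2a, Mki67, Cenpf, Birc5 and Nusap1, and at most 1 UMI summed over the 4 genes Stab2, Clec4g, Cd79a and Reln of other liver cells. This gave 2312 cells, 5.97% of the 38697 kept. DMSO 1 to 3 held 321, 231 and 279 of them, and CWHM-12 1 to 3 held 314, 663 and 504. Cells that met every condition but had no Timd4 UMI numbered 1846 and served as the nearest comparison (Timd4-).

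The 6 libraries came from livers of wild-type male mice that had all undergone pIVCL, in which the inferior vena cava is partly ligated and the liver becomes congested, at 8 to 10 weeks of age. Osmotic pumps were placed under the skin 2 weeks later and delivered either the solvent DMSO (3 libraries) or CWHM-12, an inhibitor of all integrins that contain the αV subunit, at 100 mg/kg/day (3 libraries), for 4 weeks. Livers were digested with pronase and collagenase and the suspension was adjusted to 90% nonparenchymal cells and 10% hepatocytes, so that cell numbers are partly set by the preparation. No unoperated mice were analysed here, and a pump of inhibitor reaches every cell of the body, so effects on Kupffer cells through other cells cannot be told apart from effects on the cells themselves. The labels name 2 batches, and 2024.12 is the batch of DMSO 3 together with CWHM-12 2 and 3, while 2024.6 is that of DMSO 1 and 2 together with CWHM-12 1. No mouse identifier is printed there, so p-values measure the spread between libraries, which may be technical.

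Kupffer cells of embryonic origin renew themselves in the sinusoid and carry Timd4, a receptor for phosphatidylserine on apoptotic cells. When they are lost, blood monocytes can settle in the niche and take on Clec4f and Vsig4 before they take on Timd4, so that Timd4 is used as a sign of long residence. Marco, a class A scavenger receptor for bacteria and particles, and Cd163, the receptor for haptoglobin-bound haemoglobin, are further marks of settled tissue macrophages. The 3 promoters are shown because Timd4 chose the cells and the levels of Marco and Cd163 are followed below. They are the 250 bases before the RefSeq start of each gene in build GRCm38.p6, 5′ to 3′ in the direction of the gene: Timd4 at chr11:46810549-46810798 on the plus strand, Marco at chr1:120505025-120505274 on the minus strand and Cd163 at chr6:124304401-124304650 on the plus strand. Capitals mark GAGGAA, a core motif of the macrophage factor PU.1, and TGCTGA, a MAF half-site, each searched on both strands and with no overlap between them, so a TGCTGA on the opposite strand reads TCAGCA.
Timd4: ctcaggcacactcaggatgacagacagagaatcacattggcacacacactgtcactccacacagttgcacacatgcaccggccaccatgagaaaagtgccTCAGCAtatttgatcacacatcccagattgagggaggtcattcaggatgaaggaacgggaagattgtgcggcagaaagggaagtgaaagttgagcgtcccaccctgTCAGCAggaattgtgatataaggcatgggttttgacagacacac
Marco: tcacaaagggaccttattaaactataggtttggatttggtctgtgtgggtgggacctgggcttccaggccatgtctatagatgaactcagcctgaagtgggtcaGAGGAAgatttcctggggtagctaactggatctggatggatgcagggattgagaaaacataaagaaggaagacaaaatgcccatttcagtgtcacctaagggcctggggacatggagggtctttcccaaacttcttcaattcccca
Cd163: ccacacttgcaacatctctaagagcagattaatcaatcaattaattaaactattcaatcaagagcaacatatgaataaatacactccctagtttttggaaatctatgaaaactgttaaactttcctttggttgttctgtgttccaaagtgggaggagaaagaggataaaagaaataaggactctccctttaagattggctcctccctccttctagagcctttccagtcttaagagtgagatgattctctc
Timd4 held 2 matches of TGCTGA and none of GAGGAA, Marco held 1 of GAGGAA and none of TGCTGA, and Cd163 held neither. GAGGAA was present in 23.25% and TGCTGA in 16.08% of all 32851 promoters of that length.

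Of the resident markers, Cd163 and Marco were not used by the rule. Cd163 had a UMI in 78.8% of the Timd4+ cells and Marco in 27.9%. In cells typed as sinusoidal endothelium (LSEC-type), which should lack both, the shares were 1.62% and 0.387%, at a median of 3786 UMIs against 4706.5 in Timd4+ cells. Timd4 itself had a UMI in 1.13% of LSEC-type cells (140 of 12409) and in 0.493% of B-type cells (13 of 2635). Both types were chosen with at most 1 of the 6 Kupffer genes detected, so barcodes with more Kupffer RNA were left out beforehand. These low shares are thus partly set by the choice and do not measure the background of all such cells. Clec4f, a Kupffer-restricted lectin, had a UMI in 98.3% of the Timd4+ cells and Vsig4, the complement receptor that clears opsonised particles from blood, in 98.2%. Both helped to choose the cells, so these shares describe the choice, as does the finding of all 6 Kupffer genes in 2009 of the cells (86.9%) and of exactly 3 in 23. No barcode was shared between libraries among these cells, and 42 of them had a doublet score above 0.25.

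Transcripts used as marks of other cells ranged from rare to common in the Timd4+ cells. Ms4a1 of B cells appeared in 4 of the 2312 cells, Cd3e of T cells in 10, S100a8 of neutrophils in 18, Cd209a and Flt3 of dendritic cells in 3 and 5, and Epcam and Krt19 of bile duct cells in 9 each. Ccr2, the chemokine receptor of monocytes, appeared in 76 (3.29%). Other genes of the same lists were frequent. Cd79b of the B cell list had a UMI in 270 cells (11.7%, against 0.733% of LSEC-type cells), Clec9a and Naaa of the dendritic cell list in 327 (14.1%) and 388 (16.8%), and Csf3r of the neutrophil list in 533 (23.1%), all named after their values were seen. Cd79a, which the rule limited, was in 6 cells. Of the other genes it limited, Stab2 was in 769 (33.3%), Clec4g in 212 (9.17%) and Reln in 42 (1.82%). Dcn and Lrat of stellate cells were in 536 (23.2%) and 112 (4.84%). Ptprb and Kdr of endothelium were in 427 (18.5%) and 337 (14.6%), and the erythroid gene Hba-a1 in 172 (7.44%). Hepatocyte RNA was widespread. Alb, the hepatocyte's albumin transcript, was detected in 78.6% of Timd4+ cells and in 69.1% of LSEC-type cells, and its summed level in Timd4+ cells ran from 259 to 1528 CPM across libraries (CPM, counts scaled to a common library total).

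The limit on other-cell UMIs decided much of the membership. Of 8704 kept cells with at least 3 Kupffer genes, it removed 4371 (50.2%), from 31.9% in DMSO 1 to 61.0% in CWHM-12 3. Timd4 was present in 3494 of the removed cells (79.9%), more cells than the rule kept. The removed cells had a median of 10445 UMIs. Those with Timd4 had, in the median library, 3516 CPM of Clec4f and 2440 CPM of Vsig4, together with 776 CPM of Kdr and 652 CPM of Clec4g, which are endothelial genes. Kdr stood at 36.4 CPM in the Timd4+ cells and at 3797 CPM in LSEC-type cells. What these removed cells were was not tested. The remaining steps were small: 89 dividing cells (40 with Timd4) and 86 cells with a Gpnmb UMI (19 with Timd4, 45 with exactly 1 Gpnmb UMI) were set aside.

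Depth and RNA quality differed between libraries. Median UMIs per Timd4+ cell were 2276, 3708 and 3270 in the DMSO libraries and 2030.5, 5694 and 7509.5 in CWHM-12 1 to 3, and median mitochondrial shares were 12, 11.2 and 9.38% against 10.3, 6.97 and 7.55%. The deeper cells with less mitochondrial RNA were in CWHM-12 2 and CWHM-12 3, both of batch 2024.12. DMSO 2 stood apart from the other libraries. Its median correlation of log levels with the other libraries over genes was 0.891 against 0.945 to 0.953, and 43 genes of at least 50 CPM lay more than 2 log2 units below the mean of the others, against 0 to 4 elsewhere. C1qa, which encodes a chain of complement C1q, was at 585 CPM in DMSO 2 and from 1922 to 2552 CPM in the other 5 libraries. Its deviation from the other libraries followed the GC content of transcripts (Spearman −0.512 across 3166 genes, which are not independent replicates), while the others gave 0.0799 to 0.412.

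Timd4 levels within the Timd4+ cells were low and uneven. A single Timd4 UMI was found in 665 cells (28.8%), 2 UMIs in 405 and 3 or more in 1242, up to 31. Cells resting on 1 UMI made up 46.4, 24.2 and 39.4% of the Timd4+ cells of DMSO 1 to 3 and 51.3, 20.7 and 10.3% of CWHM-12 1 to 3. CWHM-12 3, the deepest library, had the fewest. Summed Timd4 was 763, 912 and 643 CPM in the DMSO libraries and 736, 668 and 904 CPM in the CWHM-12 libraries, or 772.5 ± 134 against 769.0 ± 121 (SD, n = 3 each). The ranges overlapped, and since Timd4 chose the cells no test was made. The same holds for Clec4f (3517, 2677 and 4903 CPM against 4830, 4529 and 4270), Vsig4 (3296, 3439 and 3010 against 2922, 3342 and 3663) and Cd5l, the secreted lipid-binding protein of Kupffer cells (4357, 5697 and 4593 against 5211, 6237 and 6797).

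Cells next to the Timd4 threshold lay between the clear classes. The 665 cells with exactly 1 Timd4 UMI had 1050 CPM of Cd163, against 407 in the 1846 cells with none and 1200 in the 1647 cells with at least 2. Marco was at 169, 56.1 and 291 CPM in the same order. For Cd163 the 1-UMI cells were nearer to cells with more Timd4, and for Marco they lay about midway, although their median depth of 1969 UMIs was nearer to the 1577 of cells without Timd4 than to the 5952 of cells with at least 2. Ccr2 was at 40.3 CPM in the 1-UMI cells and at 320 CPM in cells without Timd4. These values are summed over all libraries and carry no test.

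Marco was the most uneven of the markers. A UMI was present in 37 of 321, 41 of 231 and 54 of 279 cells of DMSO 1 to 3 and in 59 of 314, 151 of 663 and 303 of 504 cells of CWHM-12 1 to 3. CWHM-12 3 stood above all others, with 2020 Marco UMIs, at most 52 of them in 1 cell.

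The share of Timd4+ among Timd4+ and Timd4- cells was compared between treatments. It counts cells in which Timd4 was detected, and a Timd4- cell may hold Timd4 transcripts that were missed. It is therefore not the frequency of a phenotype. Counted on all UMIs, the 3 DMSO libraries in order had 38.0, 59.8 and 42.8% and the 3 CWHM-12 libraries 38.9, 76.1 and 84.3%. The libraries with the deepest cells had the highest shares, so cells were also thinned to 1000 UMIs and typed again. Cells too shallow for this were left out, 201, 37 and 92 in the DMSO libraries and 154, 16 and 0 in the CWHM-12 libraries, an uneven loss. Thinning also let back in deep cells that the limit on other-cell UMIs had removed, so the share then described a different set of cells. The cells typed went from 844, 386 and 652 to 863, 539 and 1025 in DMSO 1 to 3. In CWHM-12 1 to 3 they went from 807, 871 and 598 to 901, 1659 and 1249. The shares were then 29.8, 45.1 and 31.1% against 31.9, 41.2 and 55.2%. The groups overlapped. The means were 35.3 ± 8.47% and 42.8 ± 11.8% (SD, n = 3 each), a difference of 7.43 percentage points with an exact two-sided permutation p of 0.5, where 20 assignments allow no p below 0.1. Within batches the difference was −5.58 points in 2024.6 and 17.1 points in 2024.12. It was 1.18 points without CWHM-12 3 and 12.9 points without CWHM-12 1. Without thinning it was 19.5 points (exact permutation p of 0.3), with −10.0 and 37.4 points within batches. The share rose with the depth kept. Its mean was 22.0% in DMSO and 24.6% in CWHM-12 libraries at 500 UMIs, and 60.0 and 64.7% at 2000 UMIs. At 1000 UMIs, 0.347% of LSEC-type cells and 0.118% of B-type cells had a Timd4 UMI, both typed with at most 1 Kupffer gene.

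**Figure D1:**
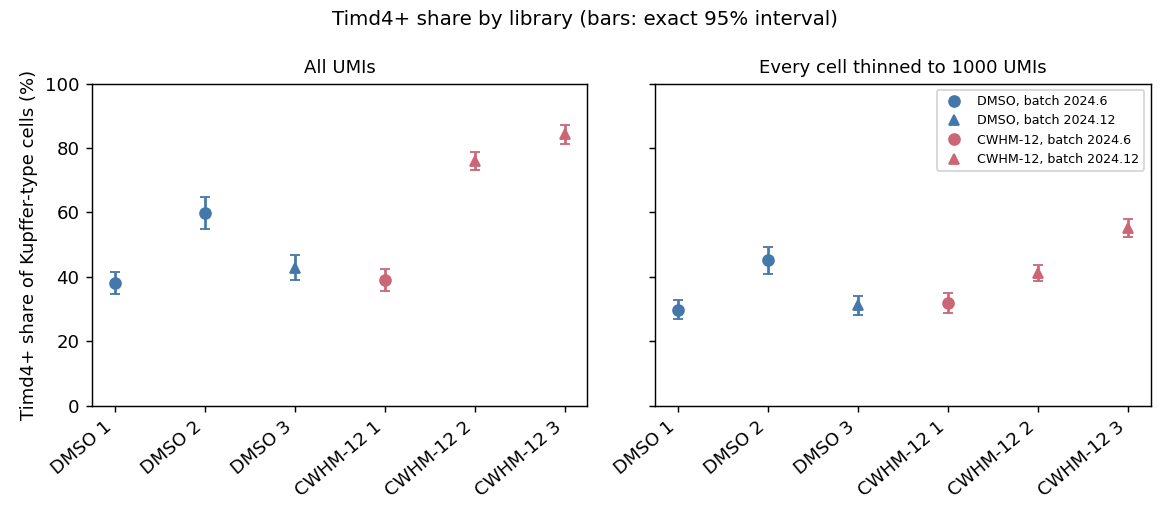
Timd4+ share of Kupffer-type cells (percent, y axis) in each library (x axis), on all UMIs (left) and after thinning each cell to 1000 UMIs (right); bars are exact 95% binomial intervals, which cover counting error only, colours give treatment and symbols give batch. On the right CWHM-12 3 is highest at 55.2%, and CWHM-12 1 lies at 31.9%, between the DMSO libraries.

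Timd4+ cells were next compared with Timd4- cells of the same libraries, leaving out the 17 genes of the rule, to see what else the Timd4+ cells carried. Of 8659 genes, 1469 passed at an adjusted p of 0.05 in edgeR's quasi-likelihood test with the library as a block (17%), 646 higher in Timd4+ cells (7.46%) and 823 lower (9.5%). Most Kupffer identity, lysosomal and iron-handling genes tested passed as higher in Timd4+ cells, and most MHC class II, scar-associated, bile duct and hepatocyte genes as lower. The Timd4- cells were shallower, with a median of 1577 UMIs, and carried more transcripts of other cell types, so that many values are given with a second one. The second comes from cells of both classes with Clec4f and Vsig4 detected and no UMI of 7 genes of other cells (Ccr2, Cx3cr1, Cd209a, Xcr1, Epcam, Spp1 and Krt18), called the restricted cells here. In these, 449 of 7023 genes passed (6.39%), 167 higher (2.38%) and 282 lower (4.02%), and the median depths, 4661 and 1466 UMIs, still differed. In cells of 1500 to 4000 UMIs, where depth is alike (medians 2507 and 2206), 363 of 4091 passed (8.87%), 152 higher (3.72%) and 211 lower (5.16%). After thinning to 1000 UMIs, which scatters cells with Timd4 into both classes and lets deep cells back in, 210 passed. Of the genes given with values below, C2, Cd209f, Cd63, Csf2rb, Hmox1, Kcnj16, Klf2, Mertk, Ms4a8a, Nr1h3, Spic and Stmn1 were among those that did not pass after thinning. Without DMSO 3, 907 passed.

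Most Kupffer identity genes were higher in Timd4+ cells. Of 19 tested, 16 passed as higher and none as lower, with a median log2 difference of 0.95 against −0.01 over all genes. In the restricted cells 13 were higher and 1 lower, with a median of 0.47. Fcna, the ficolin that binds microbial sugars, had 1149, 2080 and 3912 CPM as the lowest, median and highest of 6 libraries in Timd4+ cells and 405, 716 and 1519 in Timd4- cells. The ranges overlapped, but Fcna was higher in Timd4+ cells in all 6 pairs, by 1.56 (log2, SE 0.13, adjusted p 6.78e-05), and by 0.60 in the restricted cells. Kcna2, a potassium channel subunit, was higher by 1.48 (0.69 restricted). Of 20 macrophage regulators tested, 9 were higher and 2 lower, against 4 higher and 1 lower of 19 in the restricted cells. At like depth 2 of 19 were higher and 0 lower. Among those higher, Nr1h3, which encodes the oxysterol receptor LXRα, differed by 0.99 (0.47 restricted). Spic, the factor of iron-recycling macrophages, was higher by 0.87 (0.52). Spic did not pass at like depth (0.40, adjusted p 0.155).

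The marker genes Cd163 and Marco, which the rule did not use, were higher in Timd4+ cells. Cd163 had 978, 1105 and 1544 CPM (lowest, median, highest) in Timd4+ cells and 249, 366 and 796 CPM in Timd4- cells. The ranges did not overlap, and the log2 difference was 1.55 (SE 0.15, adjusted p 0.000121). It remained past the threshold in the restricted cells (0.56) and at like depth (1.02). Marco was less even. It had 63.3, 180.5 and 559 CPM against 28.3, 60.9 and 97.4, was higher in 5 of 6 libraries but not in DMSO 1, and passed at 1.62 (SE 0.34, adjusted p 0.00768). In the restricted cells Marco was at 0.58 and did not pass (adjusted p 0.107), while at like depth it passed at 0.94.

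**Figure D2:**
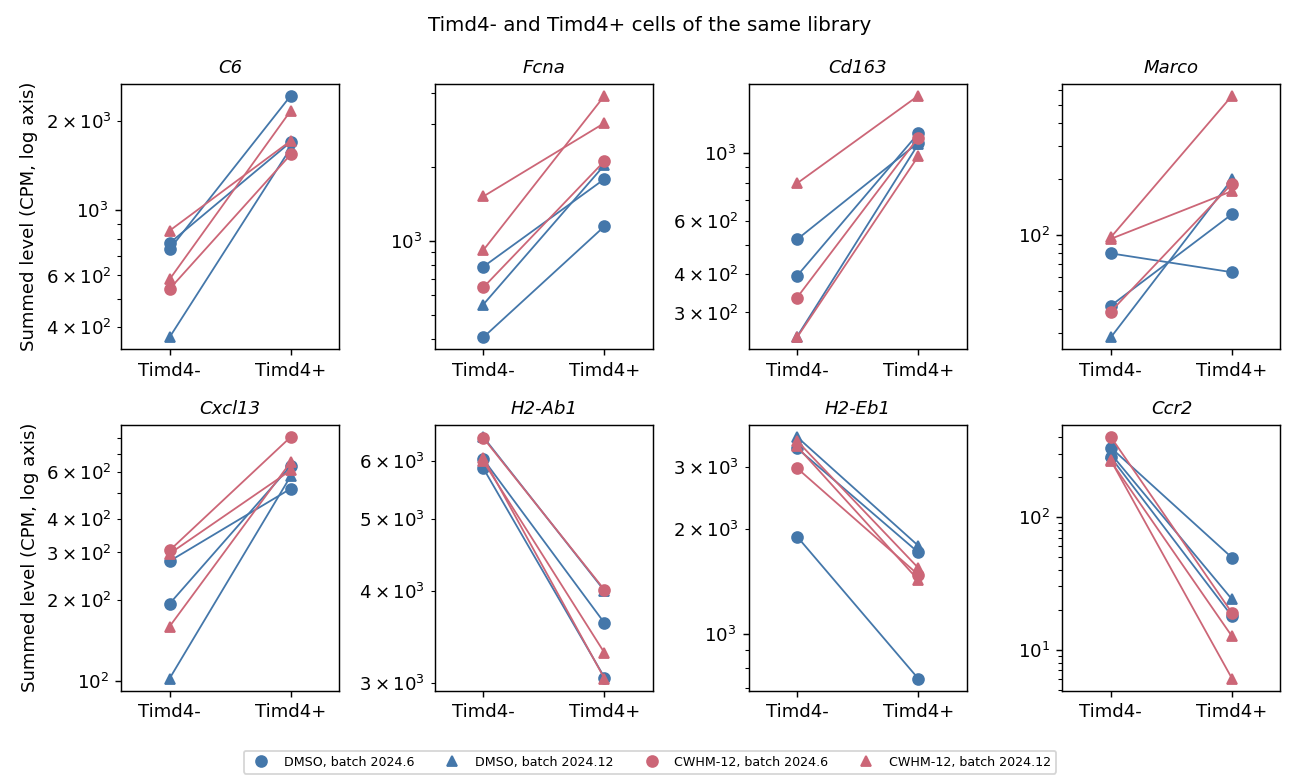
Summed level (CPM, log axis) of 8 genes in Timd4- and Timd4+ cells (x axis); each line joins the 2 classes of 1 library, with colour for treatment and symbol for batch. C6, Fcna, Cd163 and Cxcl13 are higher and H2-Ab1, H2-Eb1 and Ccr2 lower in the Timd4+ cells of all 6 libraries, while Marco is higher in 5 of 6.

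Complement genes moved in both directions. Of 18 tested, 8 were higher (C1qb, C1qc, C2, C4b, C6, Cd55, Cfp and Itgb2) and 4 lower (C1s1, C3, Cd59a and Serping1), and in the restricted cells 5 of 17 were higher and 1 lower. C6, a component of the membrane attack complex, had 1543, 1708 and 2440 CPM in Timd4+ cells and 370, 659 and 851 CPM in Timd4- cells, with no overlap, and was higher by 1.57 (SE 0.14, adjusted p 8.04e-05), by 0.66 in the restricted cells and by 1.09 at like depth. C2, the protease of the classical pathway, was higher by 1.31 and by 0.68 in the restricted cells, but by 0.11 after thinning, where it did not pass (adjusted p 0.851). Cfp, which encodes the alternative-pathway stabiliser properdin, was higher by 0.85 (0.27 restricted).

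Lysosomal and iron genes were more often higher than lower. Of 19 lysosomal genes 11 were higher and none lower (median 0.37), and 5 of 19 were higher in the restricted cells. Lgmn, the protease legumain, was higher by 0.87 (0.36 restricted), Ctsd, which encodes cathepsin D, by 0.87 (0.32), Grn, which encodes progranulin, by 0.69 (0.26) and Cd68, a lysosomal membrane protein of macrophages, by 0.64 (0.27). Of 20 iron and haem genes 12 were higher and 1 lower, and 5 and 2 of 19 in the restricted cells. Hmox1, the haem-degrading enzyme, had 892, 1079 and 1458 CPM against 476, 599 and 801, with no overlap, and was higher by 0.84 (SE 0.07, adjusted p 6e-05). It was higher by 0.48 in the restricted cells but did not pass at like depth (0.34, adjusted p 0.0961) or after thinning (0.12, adjusted p 0.258). Mertk, a receptor for apoptotic cells like Timd4, was higher by 0.70 (0.36 restricted), yet it did not pass at like depth (0.14).

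Less familiar genes led the genes higher in Timd4+ cells by size, and the chemokines Ccl24 and Cxcl13 were among the 15 largest of at least 20 CPM. Cxcl13, the chemokine that draws B cells, had 518, 619 and 808 CPM in Timd4+ cells and 102, 236 and 305 CPM in Timd4- cells, with no overlap. It was higher by 1.57 (SE 0.18, adjusted p 0.000369), and by 0.87 in the restricted cells. Ccl24, an eosinophil chemokine, was higher by 1.61 (0.61 restricted), with 187 of the 371 UMIs of DMSO 1 in 1 cell. Cd209f, a lectin of the DC-SIGN family, had the largest difference of the named genes that were higher, 2.19 (SE 0.33, adjusted p 0.00123), although its levels were low at 7.19, 23.0 and 54.8 CPM against 0, 4.90 and 14.99. In DMSO 3, its highest library, 42 of 80 UMIs were in 1 cell. Cd209f passed in the restricted cells at 1.30. Other members of this group were Pcolce2 at 1.64 (0.67 restricted), Ms4a8a at 1.72 (0.77) and Kcnj16, a potassium channel, at 1.56 (0.66). Slc1a3, Naip1, Phactr1 and Btbd11, at 1.80 to 1.91, passed among all cells but not in the restricted cells.

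MHC class II genes, which present peptides to helper T cells, were lower in Timd4+ cells. Of 13 tested, 8 were lower (Cd74, Ciita, H2-Aa, H2-Ab1, H2-DMb1, H2-DMb2, H2-Eb1 and H2-Ob) and 1 was higher, the costimulatory gene Cd86 at 0.70, with a median of −0.57. In the restricted cells 5 of 10 were lower and none higher, with a median of −0.25. H2-Eb1 had 745, 1510 and 1786 CPM in Timd4+ cells and 1897, 3413 and 3653 CPM in Timd4- cells. The groups did not overlap, although DMSO 2 was low in both, and the difference was −1.14 (SE 0.07, adjusted p 2.59e-05), −0.66 in the restricted cells and −0.75 at like depth. H2-Ab1 had 3045, 3460 and 4014 CPM against 5863, 6041 and 6462, a difference of −0.82 (−0.50 restricted).

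**Figure D3:**
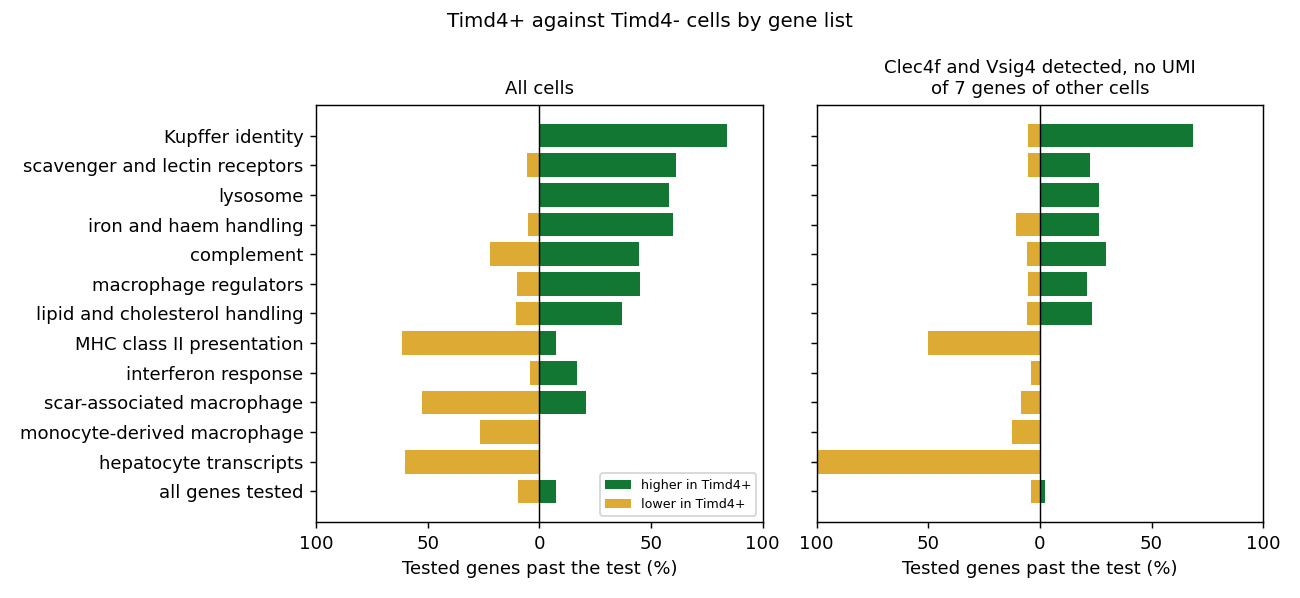
Share of the tested genes of each list (percent, x axis; rows are lists) that passed the test as higher (right of 0) or lower (left of 0) in Timd4+ than in Timd4- cells, for all cells and for the restricted cells. Kupffer identity genes reach 16 of 19 higher on the left and 13 of 19 on the right. MHC class II genes reach 8 of 13 lower on the left and 5 of 10 on the right, and all 20 hepatocyte genes are lower on the right.

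Some genes of recruited and scar-associated macrophages were lower among all cells. Of 15 genes of monocyte-derived macrophages 4 were lower (Ccr2, Cx3cr1, S100a4 and S100a6), none was higher and 11 did not pass. Scar-associated macrophages are the Trem2- and Cd9-bearing cells of injured liver. Of 19 of their genes, 10 were lower (Cd63, Cd9, Fabp5, Itgax, Lgals1, Mmp12, Mmp14, Spp1, Trem2 and Vim) and 4 higher (Cd36, Lgals3, Lpl and Tyrobp, named after their values were seen). Lpl, which encodes lipoprotein lipase, was higher by 0.48 and Cd36, a fatty acid and lipoprotein receptor, by 0.50. None of the 4 passed in the restricted cells, and Lgals3 lost its call without any 1 library except CWHM-12 3, without which it stood at 0.21. In the restricted cells 12 of the list could be tested, 1 of them lower and none higher, with a median of 0.04. At like depth 8 could be tested, 1 of them higher and 0 lower, with a median of 0.16. Ccr2 had 6.08, 18.4 and 49.4 CPM in Timd4+ cells and 263, 290 and 400 CPM in Timd4- cells, a difference of −4.03 (SE 0.27, adjusted p 2.59e-05), with 44 of the 57 UMIs of Timd4+ cells of DMSO 1 in 1 cell, and Cx3cr1, the fractalkine receptor, differed by −3.80. Both were used to choose the restricted cells, so they have no second value. Itgax, the integrin chain CD11c, differed by −2.71, Cd63 by −2.05 and Fabp5 by −1.88, values of all cells with no second one given here.

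Hepatocyte, bile duct and some LSEC transcripts were also lower in Timd4+ than in Timd4- cells, and their part in the other differences was not tested. None of 7 stellate and 3 erythroid genes passed among all cells. In the restricted cells, however, 1 of 4 stellate and all 3 erythroid genes passed as lower. Among all cells 2 of 4 T and NK cell genes and 2 of 6 dendritic cell genes were lower. B and plasma cell genes had 1 higher and 1 lower of 4, and the 1 neutrophil gene tested was higher. All 20 hepatocyte genes were negative and 12 passed as lower, with a median of −1.71. In the restricted cells all 20 passed, with a median of −1.36. Bhmt and Cyp2e1, hepatocyte enzymes, differed by −2.43 and −1.36 (−2.33 and −1.20 restricted). All 4 bile duct genes tested were lower, among them Epcam at −4.77, and none could be tested in the restricted cells. Tm4sf4 and Spp1, which are among these 4 bile duct genes, differed by −4.85 and −4.77. The Spp1 ranges overlapped, and Spp1 was higher in Timd4+ cells in 1 library. Of the 70 Spp1 UMIs in Timd4+ cells of DMSO 1, 67 were in 1 cell. Of 13 LSEC genes 5 were lower, and 6 of 11 in the restricted cells. Timp3 and Itga1, which endothelial and stromal cells express, differed by −1.64 and −1.38 and by −1.41 and −1.27 in the restricted cells. Of 13 cell cycle genes 5 were lower and none higher, against 1 of 11 lower in the restricted cells and 2 of 7 at like depth. Stmn1, a microtubule regulator of dividing cells, differed by −1.22 among all cells.

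Several groups did not separate the classes or moved with the choice of cells. Of 24 interferon genes, 4 were higher (among them Gbp3, Irf1 and Irf7, at 0.41 to 0.53) and 1 lower, and in the restricted cells none was higher and 1 lower. These 3 calls were not stable when 1 library was left out, although the differences stayed alike. Irf7 lost its call without DMSO 3 (0.47 against 0.46) or CWHM-12 1 (0.43), Irf1 without DMSO 1 (0.41 against 0.53), DMSO 2 (0.47) or CWHM-12 1 (0.52), and Gbp3 without any 1 library except DMSO 2 (0.35 to 0.46 against 0.41). Ifi44 was the lower one, at −1.26 (SE 0.10) and −1.10 in the restricted cells. Of 21 early-response genes, which tissue digestion switches on, 1 passed among all cells (higher), 9 of 18 passed as higher in the restricted cells, and 2 of 13 passed as lower at like depth. Klf2, a flow-responsive factor, was at 0.72, 0.43 and 0.25 in the same order, the last not past the threshold. The αV chain Itgav (0.18) and its partners Itgb1 (0.18) and Itgb5 (0.21) did not pass, and the sign of Itgav and Itgb5 turned at like depth (−0.14 and −0.05). Csf2rb, the shared receptor chain for GM-CSF, was as much higher in the restricted cells (0.58) as in all cells (0.56). Fcgr2b, the inhibitory Fc receptor, which is also a gene of the LSEC list, was lower by both (−1.69 and −0.86). The part of endothelial RNA in this was not tested.

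CWHM-12 was then compared with DMSO within the Timd4+ cells. No gene passed in edgeR's quasi-likelihood test with a batch term (0 of 8764, percent called 0), and the smallest adjusted p was 0.9995. At an unadjusted p under 0.05 there were 193 genes (2.2%). DESeq2 called 1 gene, Cx3cr1, and limma voom none, with 98 and 286 genes at an unadjusted p under 0.05. A p that misses the threshold does not show that the groups were alike. On simulated counts with the gene-wise spread of these libraries the test recovered 18% of genes changed by a log2 difference of 1 and 91% of those changed by 2. The changed genes were taken from those with higher mean counts, so recovery of genes with few UMIs, such as Cx3cr1, was not measured. Counts were drawn for each gene on its own, without a shift of a whole library such as that of DMSO 2. All 3 CWHM-12 libraries were above all 3 DMSO libraries in 476 genes (5.43%) and below them in 524 (5.98%). The genes below are values that did not pass.

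Several scar-associated macrophage genes were at low values under CWHM-12. Of 18 tested, 4 (Olfml3, Itgax, Cd63 and Cd9) were lower in all 3 CWHM-12 libraries than in any DMSO library and none was higher in all 3. Of all genes tested, 5.98% were lower and 5.43% higher in this way. The list median was −0.11 against 0.01 over all genes. Olfml3, a secreted glycoprotein of tissue macrophages, had 35.2, 11.96 and 34.5 CPM in DMSO 1 to 3 and 4.94, 4.33 and 6.83 CPM in CWHM-12 1 to 3. These levels came from 41, 14 and 51 UMIs in 22, 8 and 19 cells against 5, 16 and 25 UMIs in 4, 14 and 23 cells. The groups did not overlap, and the log2 difference was −2.51 (SE 0.48, unadjusted p of 0.001 in edgeR), −1.87 in batch 2024.6 and −2.46 in 2024.12. Itgax had 28.4, 14.5 and 18.3 CPM against 6.92, 5.14 and 4.10, a difference of −1.84 (SE 0.39), with 13 of the 27 UMIs of DMSO 3 in 1 cell. Cd63, a tetraspanin of late endosomes, had 28.4, 29.0 and 19.0 CPM against 12.9, 7.58 and 3.01, a difference of −1.53 (SE 0.41), and Cd9, another tetraspanin, was at −0.97. Cd63 rested on 33, 34 and 28 UMIs against 13, 28 and 11. Itgax and Cd63 were also higher in Timd4- cells, as given above, and the part of such cells in these values was not tested. Trem2, the lipid receptor that marks scar-associated cells, did not separate the groups. It had 96.2, 28.2 and 104 CPM against 46.5, 44.1 and 15.03, a difference of −1.19 (SE 0.58) that was −0.17 in batch 2024.6 and −1.97 in 2024.12. Without DMSO 3 it was −0.42. Cells with a Gpnmb UMI, a scar-associated gene, had been left out by the rule.

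Cx3cr1 had 16.3, 16.2 and 25.7 CPM in DMSO 1 to 3 and 0.989, 3.25 and 0.547 CPM in CWHM-12 1 to 3. These levels came from few cells, with 19, 19 and 38 UMIs in 6, 5 and 11 cells against 1, 12 and 2 UMIs in 1, 4 and 2 cells. The difference was −3.75 (SE 0.57) in edgeR and did not pass. DESeq2 gave −3.83 with an adjusted p of 0.0118, and over the alternatives the adjusted p ran from 0.0118 to 1. Cx3cr1 was also far higher in Timd4- cells, as given above, and the part of such cells in this value was not tested.

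Genes of TGF-β signalling, the pathway that αV integrins activate, were negative more often than positive, and none passed. Of 18 tested, 6 were positive, with a median of −0.24. The receptor genes Tgfbr1 and Tgfbr2 were the 2 lower in every CWHM-12 library, as were 5.98% of all genes tested. Tgfbr1 had 102, 146 and 106 CPM in DMSO 1 to 3 and 65.3, 67.7 and 67.5 CPM in CWHM-12 1 to 3. The CWHM-12 libraries lay within a narrow range below all DMSO libraries, at −0.78 (SE 0.21, unadjusted p of 0.00738 in edgeR), with −0.90 and −0.64 within batches. Tgfbr2 was at −0.34 (SE 0.18). The pathway's feedback genes Skil and Pmepa1 were at −0.58 and −1.24, with overlapping groups. Skil had 173, 212 and 237 CPM against 120, 153 and 186.

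The targeted integrins themselves did not pass. Itgav had 118, 147 and 143 CPM in DMSO 1 to 3 and 115, 105 and 109 CPM in CWHM-12 1 to 3, lower in every CWHM-12 library, at −0.31 (SE 0.18, unadjusted p of 0.123 in edgeR). Itgb1 and Itgb5 were at 0.02 (SE 0.19) and −0.10 (SE 0.41), and the sign of both turned under other settings. CWHM-12 acts on the integrin protein, so transcript levels do not show whether it was blocked.

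No Kupffer identity gene passed. Of 19 tested, 11 were positive, with a median of 0.07. Of these, 4 (Cdh5, Cfp, Fcna and Folr2) were higher in all 3 CWHM-12 libraries than in any DMSO library and none was lower in all 3. Over all genes tested, 5.43% were higher and 5.98% lower in this way. Cdh5 is also 1 of the 6 endothelial genes by which LSEC-type cells were typed. Fcna had 1774, 1152 and 2017 CPM in DMSO 1 to 3 and 2098, 2984 and 3866 CPM in CWHM-12 1 to 3, at 0.64 (SE 0.23, unadjusted p of 0.0244 in edgeR). Folr2, a folate receptor of resident macrophages, was at 0.37. Marco had 62.7, 130 and 197 CPM against 187, 170 and 552, at 0.91 (SE 0.47), and at 0.45 without CWHM-12 3. Cd163 had 1074, 1164 and 1058 CPM against 1114, 1522 and 966, at 0.11 (SE 0.22), and its sign turned without DMSO 3 or without CWHM-12 2. The other members of smallest p were on the negative side: Kcna2, which was higher in Timd4+ than in Timd4- cells, had 242, 408 and 378 CPM against 263, 239 and 208, at −0.54 (SE 0.24), and Lyve1, a hyaluronan receptor, was at −0.92 (SE 0.47), both with overlap. Of 18 complement genes 9 were positive (median 0.02), with C2 at 0.39, Cfp at 0.26 and C5ar1, the receptor for C5a, at −0.41.

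**Figure D4:**
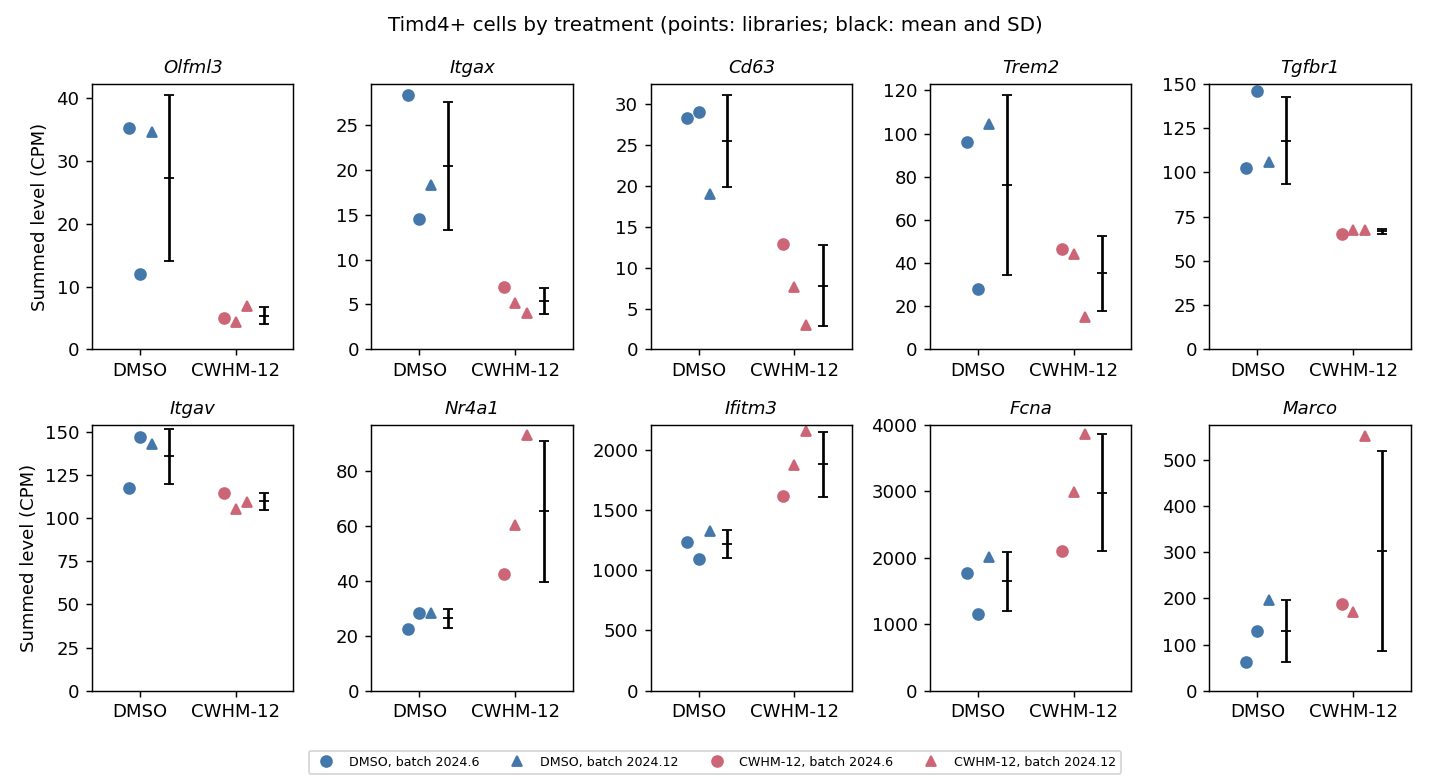
Summed level (CPM, y axis) of 10 genes in the Timd4+ cells of each library by treatment (x axis); points are libraries, with symbols for batch, and black bars give the mean and SD of 3 libraries. Olfml3, Itgax, Cd63, Tgfbr1 and Itgav lie lower and Nr4a1, Ifitm3 and Fcna higher in every CWHM-12 library, none past the adjusted threshold, while Trem2 and Marco overlap.

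The genes with the smallest unadjusted p were of mixed function. Kcnq1ot1, an antisense RNA of the imprinted Kcnq1 locus, had 33.5, 42.7 and 41.3 CPM in DMSO and 16.8, 20.6 and 13.1 CPM in CWHM-12 libraries, at −1.24 (SE 0.28). Whether its reads were kept apart from those of its sense gene is not given in the sources used here. H1f0, a linker histone, had 70.4, 94.8 and 101 CPM against 49.4, 50.9 and 49.7, at −0.88 (SE 0.20). Mdfic had 69.6, 73.5 and 64.3 CPM against 43.5, 41.4 and 38.8, at −0.70. These 3 genes separated the groups. Oxct1, an enzyme of ketone body use, was at −0.60 and AU020206 at −1.31, both lower in every CWHM-12 library, and Gdf15, a stress cytokine, was at −1.67 with overlapping groups. Among higher values, Mrpl33, a mitochondrial ribosomal protein, had 15.5, 24.8 and 16.2 CPM against 36.6, 35.2 and 39.6, at 1.03 (SE 0.28). Ifitm3, an antiviral membrane protein, had 1235, 1092 and 1326 CPM against 1616, 1875 and 2156, at 0.54 (SE 0.17). Tcf7l1 was at 1.36, Zfhx2 at 0.97, Add3 at 0.85, Ldb1 at 0.75, Cd37 at 0.74 and Mmadhc at 0.72, each higher in every CWHM-12 library, and Gpt2 was at 0.80 with overlap. For Add3, 16 of the 34 UMIs of CWHM-12 1 and 13 of the 24 of DMSO 2 were in 1 cell each.

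Early-response genes differed in their median between the batches. Of 22 tested, 18 were positive, with a median of 0.35, which was 0.01 within batch 2024.6 and 0.70 within 2024.12. Nr4a1, an orphan nuclear receptor induced within minutes of stimulation, had 22.3, 28.2 and 28.4 CPM in DMSO 1 to 3 and 42.5, 60.1 and 93.2 CPM in CWHM-12 1 to 3, at 1.11 (SE 0.30). The groups did not overlap, but 22 of the 43 Nr4a1 UMIs of CWHM-12 1 came from 1 cell, so the separation rests on that cell. Jun, an AP-1 subunit, had 202, 239 and 391 CPM against 310, 556 and 699, at 0.59, with overlap. Klf2 had 195, 223 and 198 CPM against 211, 693 and 1239. Its difference of 1.17 (SE 0.56) was 0.01 in batch 2024.6 and 2.22 in 2024.12, and 0.01 without DMSO 3. The high Klf2 libraries were CWHM-12 2 and CWHM-12 3, which also had the deepest cells and the lowest mitochondrial shares, and the part of these in the result was not tested.

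Interferon and chemokine genes were mostly negative, and none passed. Of 24 interferon genes 6 were positive (median −0.12), and of 17 chemokine genes 5 (median −0.30). The interferon median was −0.38 within batch 2024.6 and 0.01 within 2024.12, and the chemokine median −0.64 and −0.14. Cxcl9, an interferon-induced T-cell chemokine, had 505, 116 and 54.8 CPM in DMSO 1 to 3 and 88.0, 28.4 and 24.6 CPM in CWHM-12 1 to 3. DMSO 1 was far above the rest, with 285 of its 588 Cxcl9 UMIs in 1 cell, the groups overlapped, and the difference was −1.44 (SE 0.56). Lysosomal (median 0.02) and MHC class II lists (median −0.07) had 11 of 19 and 3 of 12 positive. Of 14 unfolded protein response genes 12 were positive (median 0.15). The sign of these 3 medians differed between batches 2024.6 and 2024.12: 0.24 and −0.10 for lysosomal, 0.09 and −0.32 for MHC class II, and −0.06 and 0.27 for unfolded protein response genes. Over all genes 51.4% were positive.

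Summed transcripts of other cells in the Timd4+ cells overlapped between treatments. Of 20 hepatocyte genes 17 were nevertheless positive under CWHM-12, with a median of 0.31 (0.55 within batch 2024.6 and 0.10 within 2024.12), and none passed. Hepatocyte genes summed to 2295 to 6562 CPM in DMSO and 1739 to 5421 CPM in CWHM-12 libraries, LSEC genes to 524 to 721 and 482 to 730, dendritic cell genes to 213 to 530 and 382 to 469, and T and NK cell genes to 44.3 to 216 and 33.5 to 245. All 20 hepatocyte, 14 LSEC, 12 dendritic and 14 T and NK genes had UMIs in the Timd4+ cells. Erythroid genes, 6 of 8 with UMIs, summed to 20.3 to 159 and 98.1 to 290. The part of these in the treatment values was not tested.

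Whether the treatment difference in Timd4+ cells differed from that in Timd4- cells was tested as an interaction. No gene of 9727 passed in edgeR (percent called 0), where 212 had an unadjusted p below 0.05. DESeq2 and limma voom called none, and 33 and 350 genes reached that level. No treatment value above was therefore shown to be particular to Timd4+ cells.

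The batches also differed within the Timd4+ cells without a call in edgeR. The test of 2024.12 against 2024.6 called 0 of 8764 genes (percent called 0). The unadjusted p was below 0.05 for 432 genes (4.93%), and the smallest adjusted p was 0.261. DESeq2 called 35, 2 higher and 33 lower in 2024.12, and limma voom none, with 522 at an unadjusted p under 0.05. Without DMSO 2, edgeR called 67, 14 higher and 53 lower. The 5 genes of smallest p that were lower in 2024.12 held hepatocyte transcripts and the mitochondrial transcript mt-Nd4l. Apob, of the main lipoprotein protein, had 68.7, 49.6 and 61.3 CPM in the libraries of 2024.6 (DMSO 1, DMSO 2 and CWHM-12 1) and 8.80, 5.96 and 10.9 CPM in those of 2024.12 (DMSO 3, CWHM-12 2 and CWHM-12 3), a difference of −2.81 (SE 0.32). Mug1 was at −2.87 and Pzp, a related protease inhibitor, at −2.45. Among genes higher in 2024.12, Hes1, a Notch target, had 92.8, 89.7 and 65.3 CPM against 167, 156 and 142, at 1.02 (SE 0.18), and the clock gene Nr1d1 was at 1.15, Rtn1 at 1.42 and Jun at 0.92. These groups did not overlap for Apob or Hes1.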

How the data were processed

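Whole-number UMI counts per gene and barcode were deposited by the authors as 1 matrix for each of 6 BD Rhapsody libraries, per the file headers, with 10000 barcodes and 28220477 to 48100436 UMIs a library. Build GRCm39 is named, per the submitters' processing notes. Neither aligner nor barcode selection was given in the sources used here. Members, gene lists, tests and alternatives were chosen with earlier results of these data known.

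Raw counts were summed per library over the Timd4+ cells (1034330 to 3678760 UMIs) and over the Timd4- cells, and tested with edgeR 4.0.16 (quasi-likelihood, TMM, its filter on low counts, Benjamini-Hochberg adjustment at 0.05) in R 4.3.3. The treatment fit had a batch term, the comparison of classes had the library as a block, and the 17 genes of the rule were left out of the tests after library sizes were set. CPM are on TMM-scaled library sizes where a test is given, differences within a batch are between means of log2 CPM (prior count 2), and standard errors were worked back from the F statistic. The Timd4+ share was tested by exact permutation, two-sided (scipy 1.17.1), and its 95% intervals are Clopper-Pearson. Interval and count precision cover counting error only. LSEC-type cells had at least 3 of 6 endothelial genes and B-type cells at least 2 of 4 B cell genes, both with at most 1 Kupffer gene. Doublets were scored with Scrublet in scanpy 1.11.5 and kept.

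The rule for named genes took, for the treatment, the 10 genes of smallest p in each direction with at least 20 CPM in the higher group, since none passed. For the classes it took the 15 of largest difference in each direction among genes that passed, and for the batch 5 in each direction. It added the 3 members of smallest p of each of 32 gene lists, Itgav with its β partners, and the markers. Not all are described. Genes listed to spell out a small count (the complement, MHC class II, scar-associated and interferon genes, and Cd9, Tgfbr2, Cdh5 and Folr2) were named after their values were seen.

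Alternatives were DESeq2 1.42.0, limma voom with sample weights (limma 3.58.1), the size factors of DESeq2, no filter on low counts, a looser (200 genes, 300 UMIs, 50% mitochondrial) and a stricter cell filter (500, 1000 and 15%), at least 2 Timd4 UMIs, at least 4 of 6 Kupffer genes, doublets left out, cells thinned to 1000 UMIs (500 and 2000 for shares), no batch term or block, the replicate number as a block, and each library left out. The restricted cells and the band of 1500 to 4000 UMIs were added after seeing the data. The tests were also run on simulated data drawn from the real means and library sizes, with 100 genes changed by each of 2 sizes. The changed genes were taken from those with higher mean counts. The treatment test made 7 false calls over 8764 genes. The test of the classes recovered 82% of genes changed by a log2 of 1 and 100% of those changed by 2, with 13 false calls over 8659 genes. Transcript GC content came from GENCODE models of build GRCm38 matched by symbol.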

Additional observations from a re-analysis of the deposited data

How the results depend on the processing

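For the treatment, the count of genes past the threshold was 0 under every alternative run except DESeq2, which gave 1. For the classes, 1469 genes passed and the count was 2644 without the filter on low counts, 714 with at least 4 Kupffer genes, 210 after thinning, 449 in the restricted cells, 363 in cells of 1500 to 4000 UMIs, 664 without the library block (220 higher and 444 lower), and 907 to 1440 with 1 library left out. For the interaction it was 14 without the filter, 3 in cells of 1500 to 4000 UMIs and 0 to 2 with 1 library left out. For the batch it was 35 with DESeq2 and 0 to 67 with 1 library left out, 67 without DMSO 2. The difference in share stayed positive in all settings run, 2.30 to 19.5 points, and 1.18 to 12.9 with 1 library left out. Its sign differed between the batches, however. Over the settings of thinning and cell choice it ran from −10.5 to −3.05 points within 2024.6 and from 7.08 to 37.4 within 2024.12. With CWHM-12 against DMSO, the Cd163 treatment value ran from −0.062 (without CWHM-12 2) to 0.23 with 1 library left out. The Itgb1 treatment value turned to −0.17 after thinning, −0.035 in cells of 1500 to 4000 UMIs, −0.0476 without the batch term and −0.035 with the replicate block, and ran from −0.20 (without DMSO 3) to 0.25 with 1 library left out. The Itgb5 treatment value turned to 0.10 after thinning, 0.047 in cells of 1500 to 4000 UMIs and 0.15 with the replicate block, and ran from −0.57 to 0.40 (without DMSO 3) with 1 library left out. Among class values, Itgav turned to −0.054 after thinning, −0.043 in the restricted cells and −0.14 in cells of 1500 to 4000 UMIs, Itgb5 to −0.052 in cells of 1500 to 4000 UMIs and Irf7 to −0.026 in the restricted cells. The causes were not tested. Over the named genes and settings, class values kept their direction and side of the threshold 1039 times, lost the call 92 times, gained it 1 time and turned 5 times. Libraries with the same replicate number correlated by 0.274, 0.056 and 0.029 in their deviations, so the numbers were taken as names that do not pair the samples. With the replicate block 0 treatment genes passed (342 at an unadjusted p under 0.05), and the share difference stayed at 7.43 points (exact sign-flip p of 0.75 over 8 assignments). The number of libraries, 3 a group, limits what the treatment comparison can show, as may the shallow cells of DMSO 1 and CWHM-12 1, whose part was not tested. The comparison also moved with single libraries. With 1 left out, genes at an unadjusted p under 0.05 in edgeR ran from 55 (without CWHM-12 3) to 501 (without DMSO 2), against 193 with all.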
